A study of Homo sapiens with 4 samples.

Results

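Genes of the voltage-gated ion channel superfamily and their partners were examined for open chromatin in C4-2B and C4-2BER cells. Members were the protein-coding genes of the GENCODE annotation of hg38 whose symbols begin with KCN and a letter, SCN and digits followed by A or B, or CACNA, CACNB or CACNG. The rule found 136 of 19689 protein-coding genes. They were 10 pore genes of sodium channels, 4 sodium channel beta subunits, 10 pore genes of calcium channels and 16 auxiliary subunits of calcium channels. Of the potassium channel genes, 40 were voltage-gated potassium (Kv) pore genes, silent subunits among them. Another 8 were of the calcium- or sodium-activated families (KCNMA, KCNN, KCNT and KCNU). The rest were 16 inward rectifiers (KCNJ), 15 two-pore channels (KCNK) and 17 potassium channel auxiliary subunits. Only 60 of the 136 belong to the sodium, calcium and Kv pore families, which are called voltage-gated pores below. The KCNJ and KCNK pores, 31 genes, lack a voltage sensor.

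Sodium and calcium channels carry the inward currents that start and shape an action potential, and calcium entry triggers the release of transmitter or hormone. Potassium channels bring the membrane back to rest, hold it there or damp repetitive firing, and beta, gamma, alpha2delta and KCNE or KCNIP subunits tune the gating or surface level of the pores. In cells that are not neurons, many neuronal genes are held silent by the repressor REST, which binds a DNA element called RE1.

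Chromatin accessibility was measured by ATAC-seq, which cuts and tags open DNA with the Tn5 transposase. C4-2B is a human prostate adenocarcinoma line, grown in RPMI with 10% serum. C4-2BER is its enzalutamide-resistant derivative with neuroendocrine-like features, made by continuous culture with that androgen receptor blocker. Each line had 2 libraries, which the authors merged before calling peaks, so each line is 1 list and no difference below has a replicate check or a p-value. The C4-2B list held 149676 peaks at a depth of about 30.2 M reads, and the C4-2BER list held 118728 peaks at about 25.2 M. The C4-2B libraries were thus 1.20 times deeper. In a bulk culture, a site open in fewer cells and a site less open in each cell cannot be told apart. Promoters of all 7 neuroendocrine and all 6 luminal marker genes examined carried a peak in both lists, so the presence of a promoter peak did not separate the lines by these labels. Among 5 genes of other cell types, PTPRC, CD3E and ALB had no promoter peak, COL1A1 had one in both lists and PECAM1 in C4-2BER only.

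The sequences at the heart of the promoter results are shown first. Each is a 150-base stretch without an annotated exon, taken as near as possible to the summit of the strongest promoter peak and written 5′ to 3′ on the strand of the gene. Capitals mark CG dinucleotides. KCNJ8 and KCNJ3 had promoter peaks in C4-2BER only, KCNJ6 and KCNT2 were among the genes whose peak rose most in rank, KCNG4 had a promoter peak in C4-2B only, and the SCN4A peak fell in rank.
KCNJ8 (chr12:21774828-21774977, minus strand): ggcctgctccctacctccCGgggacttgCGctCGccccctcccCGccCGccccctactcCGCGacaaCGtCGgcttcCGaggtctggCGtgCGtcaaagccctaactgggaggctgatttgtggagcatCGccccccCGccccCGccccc
KCNJ3 (chr2:154697444-154697593, plus strand): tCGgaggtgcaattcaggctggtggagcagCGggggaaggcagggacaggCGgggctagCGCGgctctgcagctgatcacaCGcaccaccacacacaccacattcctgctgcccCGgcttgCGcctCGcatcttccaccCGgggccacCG
KCNJ6 (chr21:37916458-37916607, minus strand): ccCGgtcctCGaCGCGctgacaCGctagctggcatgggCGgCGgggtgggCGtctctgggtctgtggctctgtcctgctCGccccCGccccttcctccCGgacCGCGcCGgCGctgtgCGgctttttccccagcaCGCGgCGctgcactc
KCNT2 (chr1:196609226-196609375, minus strand): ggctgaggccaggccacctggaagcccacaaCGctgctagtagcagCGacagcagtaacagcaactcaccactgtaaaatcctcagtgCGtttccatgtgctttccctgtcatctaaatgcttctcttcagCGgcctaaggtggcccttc
KCNG4 (chr16:84240061-84240210, minus strand): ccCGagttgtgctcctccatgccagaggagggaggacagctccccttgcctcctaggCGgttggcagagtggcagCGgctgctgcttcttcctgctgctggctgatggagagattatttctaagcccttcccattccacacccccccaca
SCN4A (chr17:63974233-63974382, minus strand): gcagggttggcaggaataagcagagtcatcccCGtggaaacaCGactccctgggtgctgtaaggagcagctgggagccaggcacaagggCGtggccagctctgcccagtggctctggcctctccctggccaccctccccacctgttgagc
The stretches of KCNJ8, KCNJ3 and KCNJ6 held 15, 11 and 19 CG dinucleotides. Those of KCNT2, KCNG4 and SCN4A held 4, 3 and 3. The KCNT2 stretch lay at bases -935 to -786 from the canonical transcription start site. Its C4-2BER summit lay 466 bp upstream of that site, outside the stretch. Base content was also taken over the 1000 bp on either side of the canonical transcription start site. There, the 12 members with a peak in C4-2BER only had a median GC content of 63.0%. Their median observed to expected CpG ratio was 0.709. Members with a peak in both lists had close values, 62.6% and 0.668. The 6 members with a peak in C4-2B only had medians of 54.7% and 0.251, and the 20 without a promoter peak 53.2% and 0.320.

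A promoter peak was a peak touching the 2 kb on either side of any transcription start site (TSS). Of the 136 genes, 98 (72.1%) had one in both lists, against 77.7% of all protein-coding genes. In C4-2BER alone, 12 genes had one (8.82%, 95% Wilson interval 5.12 to 14.8%), against 3.39% of all genes, and in C4-2B alone 6 did (4.41%), against 2.83%. No promoter peak was called in either list for 20 (14.7%), against 16.0%. Weighting all other genes to the GC content deciles of the members gave 82.3% in both, 3.07% in C4-2BER only and 2.44% in C4-2B only. GC content was taken around the canonical TSS only. Channel promoters were also weakly open, so strength was taken from 1 list at a time. Of the 110 members with a C4-2BER promoter peak, 10.9% had none in C4-2B, against 4.18% of all genes and 8.93% of other genes weighted to the ranks of the member peaks within the C4-2BER list. Of the 104 members with a C4-2B promoter peak, 5.77% had none in C4-2BER, against 3.51% of all genes and 6.77% of other genes weighted in the same way to the C4-2B list. The intervals cover counting error only.

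**Figure D1:**
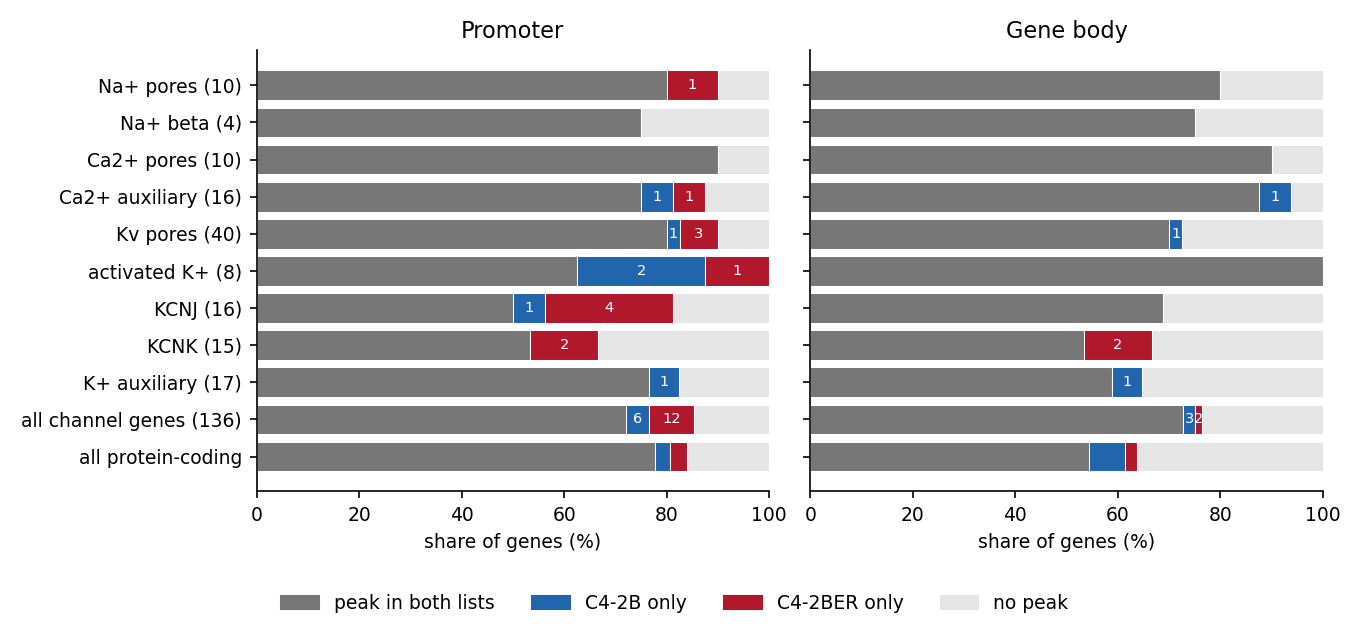
Share of genes (%) with a promoter peak (left) or a gene body peak (right) in both lists, C4-2B only, C4-2BER only or neither, by channel family with the number of genes in brackets; numbers in the coloured bars are genes. KCNJ and KCNK genes hold 6 of the 12 promoters with a peak in C4-2BER only. Among them, the KCNJ14 peak overlaps a C4-2B peak outside the window and the KCNJ4 peak is weak.

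By family, peaks in C4-2BER only were found at 4 of 16 KCNJ promoters, 2 of 15 KCNK promoters, 3 of 40 Kv pores and 1 each of the activated potassium channels, sodium channel pores and calcium channel auxiliary subunits. No calcium channel pore, sodium channel beta subunit or potassium channel auxiliary subunit had one. Over all genes this share was 3.39%, and the family counts are small. KCNJ and KCNK genes together had a promoter peak in both lists for only 16 of 31 genes, whereas the 60 voltage-gated pores had 49 in both, 4 in C4-2BER only, 1 in C4-2B only and 6 in neither.

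The strongest of these C4-2BER peaks lay over the TSS of KCNK12, a two-pore channel (chr2:47570493-47571814). Its summit, 6 bp upstream of the TSS, held 81 reads at a −log10 q of 57.0, and the peak stood at the 90.7th percentile of the C4-2BER list. The nearest C4-2B peak was 127683 bp away. A second C4-2BER peak 825 bp inside the gene held 21 reads. KCNK12 was also 1 of 2 members with gene body peaks in C4-2BER only.

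Among the inward rectifiers, KCNJ8, the pore of an ATP-sensitive potassium channel, had a peak of 42 reads 197 bp upstream of its canonical TSS (chr12:21774415-21775180, −log10 q 27.0) and another of 21 reads 1331 bp downstream. KCNJ3, a subunit of the potassium channel opened by G proteins, had 31 reads 1176 bp upstream (chr2:154697373-154698240, −log10 q 19.5), and the nearest C4-2B peak was 84298 bp away. At KCNJ8 it was 22571 bp away. KCNJ4 had 18 reads 727 bp upstream at a −log10 q of 1.44, among the weakest peaks of the list. The KCNJ14 peak, with 19 reads 2161 bp upstream, overlapped a C4-2B peak that lay outside the window, so that the site itself was shared.

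Of the other members found in C4-2BER only, KCNB2, a delayed rectifier, held 40 reads 240 bp upstream of its TSS at a −log10 q of 19.5. CACNG5, a calcium channel gamma subunit, held 30 reads 51 bp upstream (−log10 q 17.8). The remaining peaks were weak. KCNN1, a small-conductance channel opened by calcium, held 23 reads (−log10 q 9.32). KCNK2, a mechanosensitive two-pore channel, had 3 peaks of 14, 19 and 12 reads. The Shaker-type pores KCNA3 and KCNA6 held 17 and 10 reads, and SCN7A, an atypical sodium channel, held 12. A −log10 q of 10 was reached by 5 of the 12 genes, against 329 of 667 genes with such a promoter overall.

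The 6 promoters with a peak in C4-2B only were weaker, with 9 to 33 reads and a median of 14.5. KCNMB2, a beta subunit of the large-conductance calcium-activated channel, held the 33 reads (chr3:178558633-178559012, −log10 q 25.2) near an alternative TSS. The summit lay 22358 bp downstream of the canonical TSS. KCNMB2 was the 1 gene of the 6 above a −log10 q of 10, against 217 of 557 genes overall. KCNG4, a silent Kv subunit that modifies other pores, held 14 reads 124 bp upstream of its TSS (−log10 q 5.78). KCNN4, an intermediate-conductance calcium-activated channel, held 10 reads, KCNU1, a channel known from sperm, 15 reads, and CACNG8, a gamma subunit, 9 reads. KCNJ18 held 16 reads, but it has a near-identical copy, KCNJ12. Reads over their shared sequence are hard to place, and only those of mapping quality 10 or more were kept.

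Whether a peak lay over the canonical TSS itself was examined after the promoter values were seen. The canonical TSS was covered in both lists for 59 members (43.4%), against 64.6% of all genes. It was covered in C4-2BER only for 23 (16.9%, 95% Wilson interval 11.5 to 24.1%), against 5.51% of all genes, in C4-2B only for 6 (4.41%), against 1.31%, and in neither for 48 (35.3%), against 28.6%. Of the 82 members covered in C4-2BER, 28.05% were not covered in C4-2B, against 7.86% of all genes and 20.4% of other genes weighted to the ranks of the covering C4-2BER peaks. Of the 65 members covered in C4-2B, 9.23% were not covered in C4-2BER, against 1.98% of all genes and 6.02% of other genes weighted likewise. Of the 23 genes covered in C4-2BER only, 9 had a promoter peak in C4-2BER only and 14 had promoter peaks in both lists. At KCNJ10 and KCNT2, 2 of the 14, the covering peak overlapped a C4-2B peak that stopped short of the TSS, and at the other 12 it overlapped no C4-2B peak. They were 8 Kv pores (KCNA1, KCNA2, KCNA3, KCNA6, KCNB2, KCND1, KCNH7 and KCNQ3), 3 calcium channel gamma subunits (CACNG4, CACNG5 and CACNG6), 3 inward rectifiers (KCNJ6, KCNJ8 and KCNJ10), 3 two-pore channels (KCNK2, KCNK10 and KCNK12), KCNN1 and KCNT2, KCNAB3 and KCNIP2, CACNA1B and SCN7A. The 6 genes covered in C4-2B only were SCN2A, SCN3A, CACNG3, KCNG4, KCNH4 and KCNK13, and at 4 of them the covering peak overlapped a C4-2BER peak.

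For the 98 members with promoter peaks in both lists, the strongest peak of each list was compared by its rank percentile within that list, ordered by −log10 p. Their median summit reads were 63.5 (C4-2B) and 63 (C4-2BER), against 122 and 111 over all genes with peaks in both. The peak ranked higher in C4-2BER for 61 of 98 members (62.2%), against 60.6% of all genes, and the median change was 2.66 points, against 0.59. Other genes weighted to the same promoter ranks had a median change of 2.58 points and 66.3% higher. Since the lists differ in length, the ranks were also taken over equal numbers of top peaks. The peak then ranked higher in C4-2BER for 79 of 94 members (84.0%), against 76.0% of all genes, with a median change of 7.88 points, against 2.22. Over all peaks, a rise of at least 10 points was seen for 23 members (23.5%), against 10.8% of all genes. A fall as large was seen for 9 members (9.18%), against 4.60% of all genes. The all-gene values for these shares and for equal numbers of peaks were not weighted to promoter rank. Member peaks were weaker, so these comparisons cannot separate a difference of channel genes from one of peak strength. The strongest peaks of the lists overlapped for 83 of the 98 (84.7%), against 92.3% of all genes and 86.0% of the weighted genes.

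**Figure D2:**
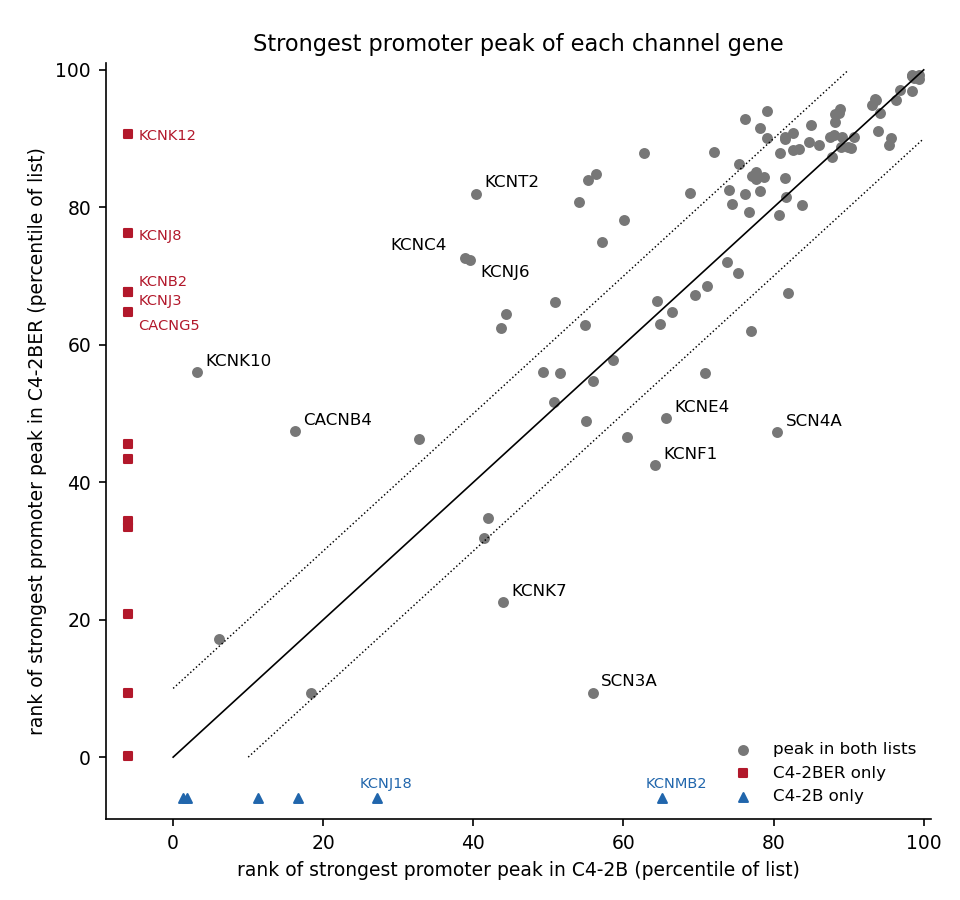
Rank percentile of the strongest promoter peak in C4-2B (x axis) and C4-2BER (y axis) for each channel gene; the solid line marks equal ranks and the dotted lines a change of 10 points. Squares and triangles at the margins are genes with a promoter peak in C4-2BER only or C4-2B only; 23 genes lie 10 points or more above equality and 9 as far below.

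The 5 largest rises were those of KCNK10, KCNT2, KCNC4, KCNJ6 and CACNB4. KCNK10, a two-pore channel, went from 10 to 23 reads near an internal TSS (up by 52.8 points), at peaks that did not overlap, and in C4-2BER only it also had peaks of 23 and 18 reads beside its canonical TSS. KCNT2, a sodium-activated channel, rose from 20 to 56 reads (41.7 points), and its peak widened from 851 to 1287 bp and reached the TSS in C4-2BER. Scaled for depth, the KCNT2 summit was 1.74 higher on the log2 scale, but the summits lay 826 (C4-2B) and 466 bp (C4-2BER) upstream. KCNC4, a fast Kv pore, went from 44 to 64 reads (33.7 points), and 2 separate C4-2B peaks corresponded to 1 C4-2BER peak of 1304 bp.

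KCNJ6, another subunit of the potassium channel opened by G proteins, had 36 reads at a C4-2BER peak 18 bp upstream of its TSS, where C4-2B had no peak. Its strongest C4-2B promoter peak, with 20 reads, lay 2096 bp downstream, so the rise of 32.8 points compared different sites. A C4-2BER peak of 17 reads also lay at that downstream site, outside the promoter window. CACNB4, a beta subunit of calcium channels, went from 19 to 32 reads (31.1 points). Its C4-2B summit lay 439 bp upstream of the TSS and its C4-2BER summit 164 bp downstream. Another C4-2B peak, 111 bp downstream, held 12 reads.

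The 5 largest falls were those of SCN3A, SCN4A, KCNF1, KCNK7 and KCNE4. The strongest SCN3A peak in C4-2B, with 27 reads, lay near an internal TSS and was absent from C4-2BER. Its summit was 18151 bp downstream of the canonical TSS. The peak at the canonical TSS went from 17 to 10 reads. SCN4A, the sodium channel of skeletal muscle, fell at 1 shared site 1390 bp upstream of its TSS from 56 to 19 reads, by 33.3 points, and its scaled log2 change was -1.30. KCNF1, a silent Kv subunit, went from 42 to 23 reads, KCNK7, a two-pore subunit, from 44 to 25, and KCNE4, a single-pass auxiliary subunit, from 38 to 20. All 5 genes thus had fewer summit reads in C4-2BER, and SCN4A had the largest fall at a shared site among them.

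**Figure D3:**
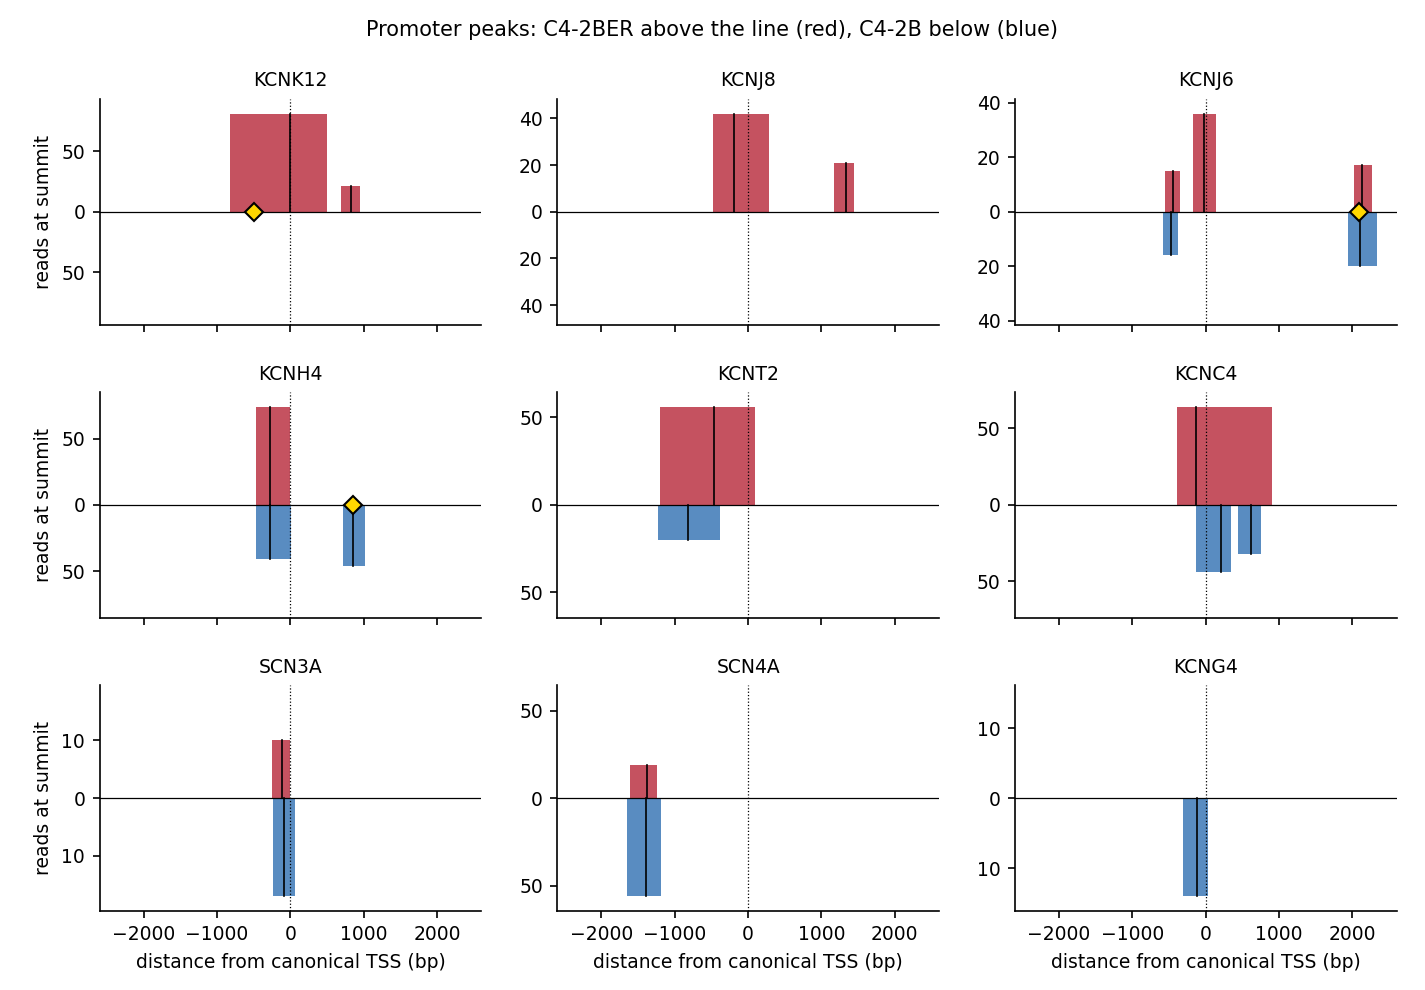
Peaks within 2600 bp of the canonical TSS (x axis, bp along the gene) for 9 channel genes; each block is a peak drawn to width with its height in summit reads, C4-2BER above and C4-2B below the line, the thin line marks the summit and the diamond an RE1 site. KCNK12 and KCNJ8 have peaks in C4-2BER only and KCNG4 in C4-2B only; at KCNH4 the peak over the RE1 site is present in C4-2B only.

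The sodium channel pores did not move as a group. Of the 8 with promoter peaks in both lists, 3 ranked higher in C4-2BER. SCN9A, a channel of sensory neurons, went from 48 to 90 reads and SCN8A, of central neurons, from 74 to 94. SCN2A held 63 and 50 reads at an internal TSS, and SCN1A 14 and 10. SCN11A held 152 and 139, but its promoter window meets that of WDR48, as the windows of 13 members meet those of other genes. SCN10A had no promoter peak. All 3 sodium channel beta subunits with promoter peaks ranked higher in C4-2BER, with a median change of 14.9 points. Of the potassium channel auxiliary subunits, 6 of 13 ranked higher, with a median change of -1.73 points.

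In gene bodies, meaning the gene outside its promoter windows, 99 members (72.8%) had peaks in both lists, against 54.4% of all genes and 68.4% of other genes weighted to the lengths of the members. Peaks in C4-2B only were found for 3 members (CACNB3, KCNAB3 and KCNF1; 2.21%, against 6.94% of all genes), in C4-2BER only for 2 (KCNK12 and KCNK15; 1.47%, against 2.31%) and in neither for 32 (23.5%, against 36.3%). Of the 20 genes without a promoter peak, 12 had gene body peaks. Members held 1026 C4-2B and 767 C4-2BER gene body peaks, or 5.23 and 3.91 per 100 kb, against 5.28 and 3.96 over all genes. Fewer peaks in C4-2BER were counted in 68 members (50.0%), against 36.1% of all genes and 48.5% of other genes weighted to the lengths of the members. More were counted in 15 (11.03%), against 9.38% and 10.6%, and the same number in 21. Of the C4-2B peaks, 449 (43.8%, interval 40.8 to 46.8%) had no overlapping C4-2BER peak, against 42.1% over all genes. Of the C4-2BER peaks, 179 (23.3%, 20.5 to 26.5%) had no overlapping C4-2B peak, against 21.3%.

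**Figure D4:**
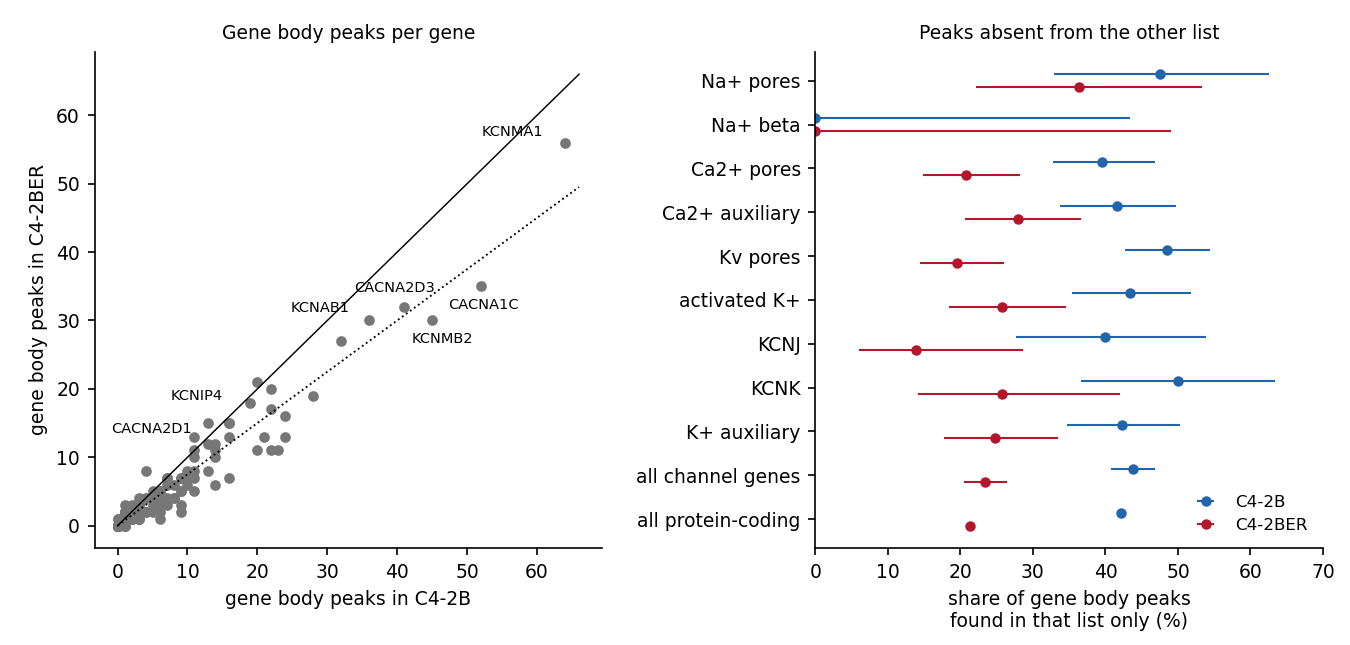
Left, number of gene body peaks per channel gene in C4-2B (x axis) and C4-2BER (y axis), with equality (solid) and the ratio over all protein-coding genes (dotted). Right, share of gene body peaks (%) found in 1 list only, by family, with 95% Wilson intervals; the shares for all channel genes are 43.8% for C4-2B and 23.3% for C4-2BER.

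Gene body peaks were spread over many members. The 5 genes with most in C4-2B held 238 of the 1026 C4-2B peaks (23.2%) and 183 of the 767 C4-2BER peaks (23.9%). KCNMA1, the pore of the large-conductance calcium-activated channel, held 64 peaks in C4-2B, of which 28 were absent from C4-2BER, and 56 in C4-2BER, of which 18 were absent from C4-2B. CACNA1C, an L-type calcium channel pore, held 52 and 35 peaks, with 24 and 7 in 1 list only. KCNMB2 held 45 and 30 (19 and 4), KCNAB1, a Kv beta subunit, 36 and 30 (17 and 12), and CACNA2D3, an alpha2delta subunit, 41 and 32 (15 and 6). A pair of auxiliary genes held more peaks in C4-2BER. KCNIP4, a Kv channel-interacting protein, held 13 and 15 peaks with 9 in C4-2BER only, and CACNA2D1 held 11 and 13 with 8. CACNA1D, another L-type pore, held 32 C4-2B and 27 C4-2BER peaks. It had 7 in C4-2BER only, a number it shared with other members, CACNA1C among them. Chosen after its values were seen, the strongest gene body peak in C4-2B only lay in an intron of CACNG4 (chr17:66968843-66969551) and held 134 reads. The strongest in C4-2BER only, with 103 reads, lay over an exon of CACNB1 (chr17:39177224-39177754).

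Neighbouring channel genes were also compared as clusters. Over the whole lists, C4-2BER held 0.793 peaks for each C4-2B peak, and 37.7% of C4-2B and 20.8% of C4-2BER peaks had no overlapping peak in the other list. Across the 5 SCN genes of chromosome 2, in 1528 kb, the lists held 60 (C4-2B) and 39 peaks (C4-2BER), with 30 (50.0%) and 10 (25.6%) in 1 list only, a ratio of 0.650. The KCNA trio of chromosome 1 held 12 and 12, and the trio of chromosome 12 held 18 and 15, a ratio of 0.833. The CACNG trio of chromosome 17 held 22 C4-2B and 15 C4-2BER peaks, and that of chromosome 19 held 8 and 12. These counts are small, and the cluster ratios lay on both sides of that of the lists.

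RE1 elements were searched as the paired elements TTCAGCACC and GGACAGNGC, separated by 2 bases, on both strands, with at most 2 mismatches among 17 compared letters. An RE1 lay within 24 members (17.6%), against 5.39% of all genes and 8.58% of other genes weighted to the lengths of the members. The promoter windows of 8 members (5.88%) held one, against 1.34% of all genes. They were CACNA1B, KCNH4, KCNIP1, KCNIP2, KCNK12, KCNQ5, KCNT1 and SCN2A. Member windows span more sequence, with a median of 8002 bp against 4605 bp over all genes, and this share was not weighted for it. Within 2 kb of the canonical TSS there were 4 (2.94%), against 0.945%. Members held 30 sites in all. Shown here are those 4, the full matches of KCNAB2 and KCNIP4, the KCNJ6 site under its strongest C4-2B promoter peak, and sites of KCNIP2 and CACNA1A covered in 1 list only. Capitals mark both elements.
KCNK12 (chr2:47571466-47571485, plus strand): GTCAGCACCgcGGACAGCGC
CACNA1B (chr9:137878788-137878807, minus strand): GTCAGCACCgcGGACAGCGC
KCNH4 (chr17:42180284-42180303, minus strand): TTCAGCACCttGGACAGCCA
SCN2A (chr2:165238484-165238503, plus strand): CTCAGCACCatGGACAGCGT
KCNJ6 (chr21:37914360-37914379, minus strand): TTCAGCACCaaGGCCAGAGC
KCNIP2 (chr10:101841326-101841345, plus strand): TTCAGCACCgcGGACAACGA
KCNAB2 (chr1:6052606-6052625, plus strand): TTCAGCACCtcGGACAGCGC
KCNIP4 (chr4:21476948-21476967, minus strand): TTCAGCACCtaGGACAGTGC
CACNA1A (chr19:13463500-13463519, plus strand): TTCAGCACCacGGCCAGCGG

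Peaks covered 14 of the 30 sites in both lists, 3 in C4-2B only, 2 in C4-2BER only and 11 in neither. Over all 2035 RE1 sites of the genome, 539 (26.5%) were covered in both lists, 121 (5.95%) in C4-2B only and 38 (1.87%) in C4-2BER only. For the 1146 sites in protein-coding genes these were 344 (30.0%), 72 (6.28%) and 22 (1.92%). Of the 14 shared sites of members, 3 ranked higher in C4-2BER (CACNA1A, CACNA1B and KCNAB2), against 211 of the 539 and 140 of the 344. The site of KCNAB2, a Kv beta subunit, matched both elements fully, and the peak over it held 44 summit reads in C4-2B against 36. The site of KCNIP4 matched fully as well and had no peak. In CACNA2D3 the peak over the site held 53 and 41 summit reads. In CACNA1B, an N-type calcium channel pore, it held 66 and 71, but the C4-2BER summit lay 174 bp from the site. The peaks over the CACNA2D2 and KCNA2 sites went from 23 to 12 and from 27 to 14 summit reads.

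**Figure D5:**
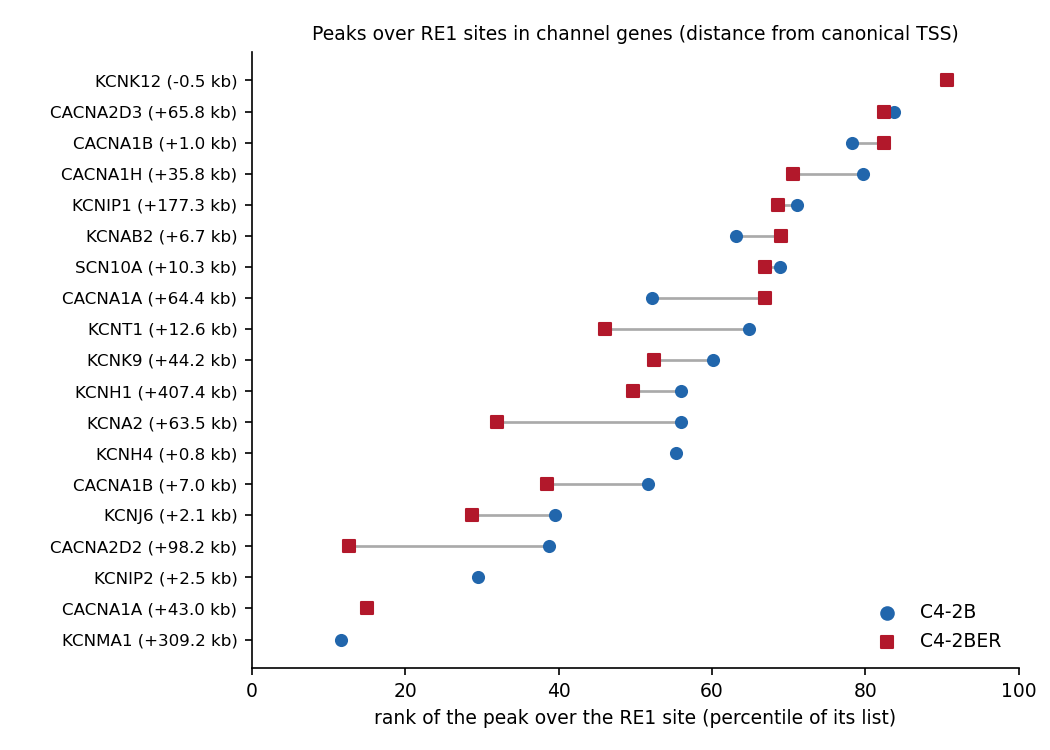
Rank percentile, within its own list, of the peak over each RE1 site in a channel gene, with the distance of the site from the canonical TSS; circles are C4-2B and squares C4-2BER, and a line joins sites with a peak in both. Of 14 joined sites, 3 rank higher in C4-2BER.

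At KCNH4, a Kv pore of the brain, the promoter peak and the RE1 peak moved apart. The C4-2B peak over the RE1, 854 bp downstream of the TSS, held 46 reads and was absent from C4-2BER, while the peak 273 bp upstream went from 41 to 74 reads. The RE1 of KCNIP2 held a C4-2B peak of 30 reads and none in C4-2BER, although the canonical TSS of KCNIP2 was covered in C4-2BER only. At KCNK12 the RE1 lay 491 bp upstream of the TSS inside the peak found in C4-2BER only, 485 bp from its summit. The second site of CACNA1A, a P/Q-type pore, was covered by a C4-2BER peak of 11 reads only. REST binding was not measured, and a match gives no more than the letters.

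Within 100 bp of the summit, RE1 letters were found at 12 of 1026 gene body peaks of members in C4-2B (1.17%, interval 0.670 to 2.03%), against 0.341% over all genes, and at 12 of 767 in C4-2BER (1.56%, 0.897 to 2.71%), against 0.396%. The CTCF motif was found at 4.58% and 5.87% of the member peaks, against 3.26% and 4.54% over all genes. The forkhead motif TGTTTAC was found at 8.97% and 6.65%, against 10.4% and 8.08%, and the E-box CAGCTG at 14.2% and 15.1%, against 13.7% and 14.0%. The elements AGAACA and TGTTCT of the androgen response element, 3 bases apart with at most 1 mismatch, were found at 0.390% and 0.261%, against 0.491% and 0.175%. RE1 was thus the motif with the highest ratio to all genes among the 5 examined in either list, on 12 peaks each.

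Also examined were 29 related genes that the rule does not take in, such as HCN pacemaker channels, the leak channel NALCN and channel partners. Of these, 26 had promoter peaks in both lists and 2 (DPP6 and STAC2) in C4-2BER only. Over all genes these shares were 77.7% and 3.39%. The DPP6 peak was weak, at percentile 4.8 of the C4-2BER list.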

How the data were processed

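The deposited data were 1 ATAC-seq peak list per line. Per the methods of the study, the authors trimmed reads with cutadapt, aligned them to hg38 with Bowtie2, kept reads of mapping quality 10 or more, removed duplicates with Picard, merged the 2 libraries of a line and called peaks with macs2, extending reads to 200 bp. Its version was not given in the sources used here. The submitters' processing notes also name FastQC and bedtools 2.17.

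In the lists deposited by the authors, the fold is the ratio of summit reads to local background. The −log10 p and −log10 q deposited by the authors belong to each summit, with q adjusted within its list. The deposited score was not used. The other deposited column gives the summit offset. No column held a single library.

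Rows sharing an interval were reduced to the 1 with the highest −log10 p. Reads were recovered from fold and −log10 p as whole numbers that met both within 0.001 for 100% of peaks, and depth from the lowest background for a genome of 2700000000 bp. A change on the log2 scale is that of summit reads divided by this background. Promoters reached 2000 bp from any TSS of GENCODE release 44 and were met by overlap of at least 1 bp, while gene body peaks were placed by their summit. Shares of other genes were weighted to deciles of GC content, gene length or promoter rank within 1 list. For rank changes they were weighted to the mean rank of both. GC content was taken over 1000 bp either side of the canonical TSS. Python 3.11.15 with numpy 2.4.6, pandas 2.3.3, scipy 1.17.1 and pysam 0.24.0 was used, and the steps were tested on simulated data. Named genes were all members with a promoter peak in 1 list only, the 5 largest rank changes in each direction, the 5 members with most gene body peaks in 1 list only, and the gene clusters, of which 1 is not reported here; others named were chosen after their values were seen. Members and lists were chosen with earlier results of these data known.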

Additional observations from a re-analysis of the deposited data

How the results depend on the processing

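No paired analysis was possible because the libraries of each line were merged before peaks were called, and for the same reason no library could be left out. Of 98 results under another setting, 65 stayed within 1.5 times the count or median or within the interval of the share, and 33 moved. A reversal could be scored only for the median rank change, which kept its sign under each alternative run for it. The cause of the moves was not tested. Scaling the reads and background of the called C4-2B peaks to the depth of C4-2BER kept 149418 of 149676 peaks. It moved none of the results computed under it. Peaks were not called anew at the lower depth, so this setting cannot decide how the lists depend on depth.

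Members with a promoter peak in C4-2BER only numbered 11 to 21 under every alternative except a −log10 q of at least 10, which left 7 (5.15%, against 3.39% of all genes), and the top 50000 peaks gave the 21 (15.4%, against 6.86%). Under each alternative run, this share of members and that of canonical TSSs covered in C4-2BER only were above those of all genes. So was the share of canonical TSSs covered in C4-2B only. The values for all genes under the alternatives were not weighted to promoter rank. Members with a promoter peak in C4-2B only fell to 2 both with equal numbers of peaks and with the top 50000, which left 62 members in both. With peaks of −log10 q of at least 5, gene body peaks in C4-2B only were found for 5 members, and the share of C4-2BER gene body peaks found only there was 19.5%. At a −log10 q of at least 10, gene body peaks were found for 8 members in C4-2B only and 1 in C4-2BER only, the share of C4-2B gene body peaks found only there was 53.9%, the median rank change was 1.23 points (all genes, -0.26), and 13 members had the canonical TSS covered in C4-2BER only.

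With equal numbers of peaks, 1 member had gene body peaks in C4-2B only, the shares of gene body peaks found in 1 list were 34.2% (C4-2B) and 30.0% (C4-2BER), and the median rank change was 7.88 points (all genes, 2.22). With the top 50000 these were 11 members, with 9 in C4-2BER only, 40.3%, 40.8% (all genes, 38.5% and 31.4%) and 13.8 points (all genes, 4.21), with 54 of 62 members higher in C4-2BER, and 2 members had the canonical TSS covered in C4-2B only. The canonical TSS alone gave a median rank change of 4.19 points. Placing peaks the other way, promoters by summit and bodies by overlap, gave gene body peaks in C4-2BER only for 1 member and in C4-2B only for 5, and counting whole genes with their promoters gave 5 and 5. A reciprocal overlap of 50% raised the shares to 50.7% and 34.2%. A motif window of 250 bp gave the forkhead motif at 13.5% and 11.99% and the E-box at 29.2% and 29.2% of member peaks.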
